A study of Mus musculus with 8 samples.

Results

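Retnla, Arg1, Chil3, Chil4 and Ccl24 are genes that macrophages switch on under the type 2 cytokines IL-4 and IL-13, and they were followed as a named set of 5 of the 754 genes on a myeloid expression panel. They were taken by name from the raw count table, without using their values, and all 5 were measured in all 8 samples. The samples were CD11b+ cells sorted from the conjunctiva of female C57BL/6J mice, labelled as 10 weeks old. One group was kept in a non-stressed (NS) humidified environment, and the other spent 5 days under desiccating stress (DS5), with scopolamine in the drinking water to block tear secretion and a fan draft in low humidity. From each group came MHCII+ cells and 3 populations of MHCII-CD64+ cells, which were monocytes (high Ly6C) and cells with intermediate (Ly6C-inter) or low Ly6C (Ly6C-low). Every sample was 1 pool of cells from both conjunctivae of many mice, with 1 sample per population and condition, so no spread between mice or pools was measured, the 4 populations of a condition are not independent replicates, no test between conditions was run and no p-value is given.

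Alternative activation describes the state of macrophages exposed to IL-4 or IL-13, which signal through a shared receptor chain and the transcription factor STAT6. Its products include a resistin-like protein, an arginase, chitinase-like lectins and chemokines that draw in eosinophils. On mucosal surfaces such as the conjunctiva, this program is known from allergy, helminth infection and tissue repair.

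Promoter sequences from RefSeq (build GRCm38.p6) were found for 3 of the 5 genes. They are shown for the gene with most counts in MHCII+ cells, Retnla, and for the pair with most counts in DS5 monocytes, Chil3 and Chil4. The Retnla stretch, chr16:48842459-48842608 on the plus strand, runs from 150 bases to 1 base before the annotated start. In capitals are a match to TTCNNNNGAA, the spacing that STAT6 is known to bind, and a match to TATAAA. The motif TTCNNNNGAA reads the same on both strands and was found in 6.95% of 32851 promoter windows of 300 bases, and TATAAA was found on either strand in 13.6%.
Retnla: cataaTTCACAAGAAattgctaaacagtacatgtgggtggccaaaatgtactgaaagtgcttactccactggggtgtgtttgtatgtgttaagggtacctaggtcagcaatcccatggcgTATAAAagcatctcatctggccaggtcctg
The Chil3 and Chil4 stretches, chr3:106167565-106167684 and chr3:106219508-106219627 on the minus strand, run from -120 to -1 and from -148 to -29 relative to the annotated starts. In capitals is the longest run that the printed stretches share, which is 26 bases long. The rest of the windows was not searched for a longer one.
Chil3: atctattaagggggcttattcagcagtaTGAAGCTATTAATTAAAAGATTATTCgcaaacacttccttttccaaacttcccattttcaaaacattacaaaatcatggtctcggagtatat
Chil4: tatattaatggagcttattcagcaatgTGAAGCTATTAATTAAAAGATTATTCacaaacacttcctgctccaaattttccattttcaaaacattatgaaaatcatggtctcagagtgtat
In local alignments, which cover the best matching part of the windows, Chil3 and Chil4 had 251 of 270 aligned bases in common (93.0%). For Chil3 and Retnla it was 110 of 192 (57.3%), over a shorter part. The pair lies 33.9 kb apart on chromosome 3, and TTCNNNNGAA was not found in either window. TATAAA was found in both, at -3 to 2 in Chil3 and at -31 to -26 in Chil4, close to its place at -30 to -25 in Retnla. Arg1 lies on chromosome 10 (chr10:24915207-24927470) and Ccl24 on chromosome 5 (chr5:135569935-135573123).

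The panel counts fluorescent barcodes hybridised to each transcript without amplification, and levels are compared here between samples and not between genes, because every gene has its own probe. Gene totals ranged from 2728 counts in NS monocytes to 39677 in NS MHCII+ cells. For each sample a negative control limit, the mean + 2 SD of 8 probes without a target, was between 11.2 and 23.0 counts, and 24 to 291 genes were above it. Log2 ratios were taken after each sample was scaled to the same gene total, and the range of a ratio over 7 scalings is given where it matters. The 95% intervals cover counting error only. H2-Aa, an MHC class II chain, had 3419 counts in NS and 2635 in DS5 MHCII+ samples and 12 to 22 in the 6 MHCII- samples, as the labels state. Ly6c1, a gene for the Ly6C antigen, went against them. It had 8 counts in NS monocytes, below the limit, and 16 in DS5 monocytes, but 583 in DS5 Ly6C-inter cells, a sample that also stood apart by 161 counts of Itgam (CD11b) against 21 in its NS counterpart. Fcgr1 (CD64), the other marker of the sort, was at or below 9 counts, and below the limit, in all 6 MHCII-CD64+ samples.

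**Figure D1:**
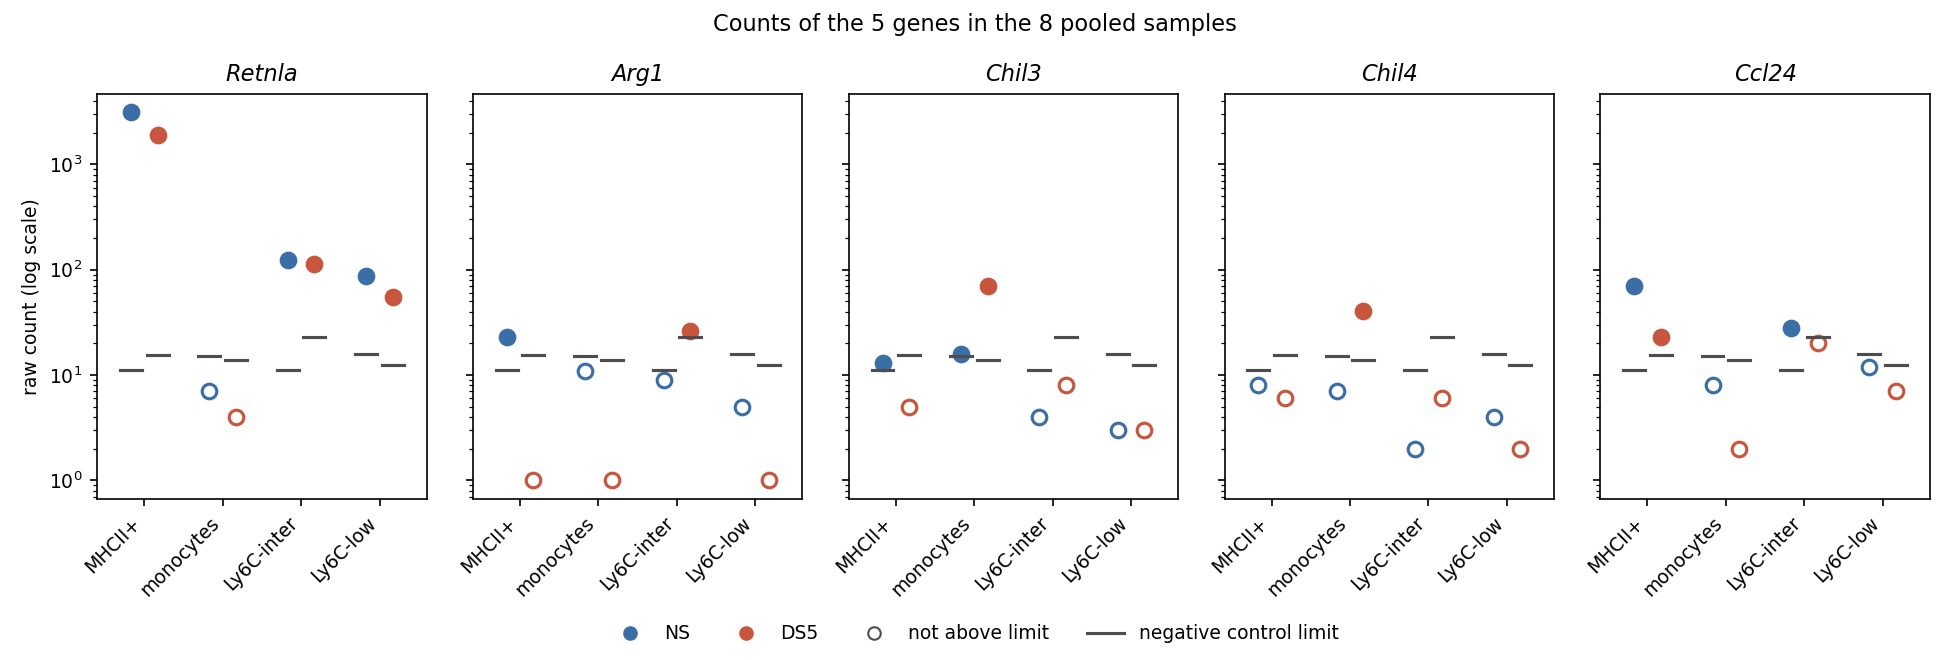
Raw counts (log scale) of each gene in the 4 sorted populations, NS in blue and DS5 in red, 1 point per pooled sample, with the negative control limit of each sample as a short line and open circles for counts not above it. Retnla is highest in both MHCII+ samples (3144 and 1887 counts), Chil3 and Chil4 in DS5 monocytes (70 and 41), and most counts of Arg1, Chil3 and Chil4 lie below the limit.

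Retnla encodes RELM-alpha (FIZZ1), a secreted resistin-like protein induced in macrophages by IL-4 and IL-13. In NS mice it had 3144 counts in MHCII+ cells, 124 in Ly6C-inter cells, 88 in Ly6C-low cells and 7 in monocytes. In DS5 mice it had 1887 counts in MHCII+ cells, 114 in Ly6C-inter cells, 55 in Ly6C-low cells and 4 in monocytes. Its counts passed the limit everywhere except in the monocytes of both groups. The order of the populations by count was the same in NS and DS5, but after scaling the Ly6C-low cells were above the Ly6C-inter cells in DS5 and below them in NS. It made up 7.92% of all gene counts in NS MHCII+ cells (Clopper-Pearson 95% interval 7.66 to 8.19) and 6.22% in DS5 MHCII+ cells (5.95 to 6.50).

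Scaled to equal totals, Retnla in MHCII+ cells exceeded monocytes by a log2 ratio of 4.95 (3.90 to 6.26) in NS and 5.93 (4.57 to 7.81) in DS5. The monocyte counts were below the limit, and with all values raised to it the ratios were 3.84 and 4.12. The log2 ratio over Ly6C-inter cells was 1.93 (1.67 to 2.20) in NS and 2.95 (2.68 to 3.24) in DS5. Over Ly6C-low cells it was 2.38 (2.08 to 2.71) and 2.20 (1.81 to 2.61). Retnla was therefore counted as higher, at a log2 ratio of at least 2 with an interval that excluded 0, in 5 of the 6 comparisons, with NS Ly6C-inter cells just short. The share of all genes counted as higher was 1.86% against NS monocytes, 1.59% against NS Ly6C-low cells, 1.99% against DS5 monocytes, 2.79% against DS5 Ly6C-inter cells and 1.72% against DS5 Ly6C-low cells. The sign was the same in all 7 scalings, where the lowest value was 1.55, for DS5 Ly6C-low cells. No other gene of the set was counted as higher in MHCII+ cells. No member was counted as lower than in NS Ly6C-inter, NS Ly6C-low or DS5 Ly6C-low cells, where 14.1%, 11.8% and 22.5% of all genes were. The comparisons of 1 condition share the same MHCII+ sample.

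Retnla in the MHCII- samples was set against the MHC class II genes, whose product defined the sort. In NS Ly6C-inter cells the Retnla count was 3.94% of that in NS MHCII+ cells, while H2-Aa, H2-Ab1, H2-Eb1 and Cd74 were at 0.241% to 1.06%. In DS5 Ly6C-inter cells Retnla was at 6.04% and the class II genes at 0.381% to 1.66%. In Ly6C-low cells Retnla was at 2.80% in NS and 2.91% in DS5, against 0.0949% to 0.460% and 0.381% to 0.731% for the class II genes. The gate selected against class II. By its ratio to MHCII+ cells Retnla ranked 11 to 16 from the top of 754 genes in these 4 samples, so most genes had a larger share left. Only 291 genes in NS and 213 in DS5 MHCII+ cells were above the limit. The shares of most genes are therefore ratios of counts not separated from background, and nothing is read from the rank. The part of MHCII+ cells carried into these samples was not tested. Relative to H2-Aa, the log2 ratio of Retnla in NS Ly6C-inter cells to that in NS MHCII+ cells was 3.07 (2.31 to 3.93), a value that does not depend on the scaling. The same value was 2.77 (1.95 to 3.70) for NS Ly6C-low cells, 2.92 (2.23 to 3.67) for DS5 Ly6C-inter cells and 2.68 (1.75 to 3.72) for DS5 Ly6C-low cells. In monocytes the order was the other way around, with Retnla at 0.223% in NS and 0.212% in DS5 and H2-Aa at 0.439% and 0.835%. The interval of Retnla relative to H2-Aa included 0 in NS monocytes and was below 0 in DS5 monocytes (-1.98, -3.98 to -0.42).

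Mrc1, the mannose receptor CD206, and C1qc, a chain of complement C1q, are genes of resident tissue macrophages, and their counts in these samples were a larger percentage of the MHCII+ count than that of Retnla. Mrc1 was at 23.1% of its MHCII+ count in NS Ly6C-inter cells and C1qc at 31.4%, and both were at 13.4% in NS Ly6C-low cells. In monocytes C1qc was at 1 count in both groups.

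**Figure D2:**
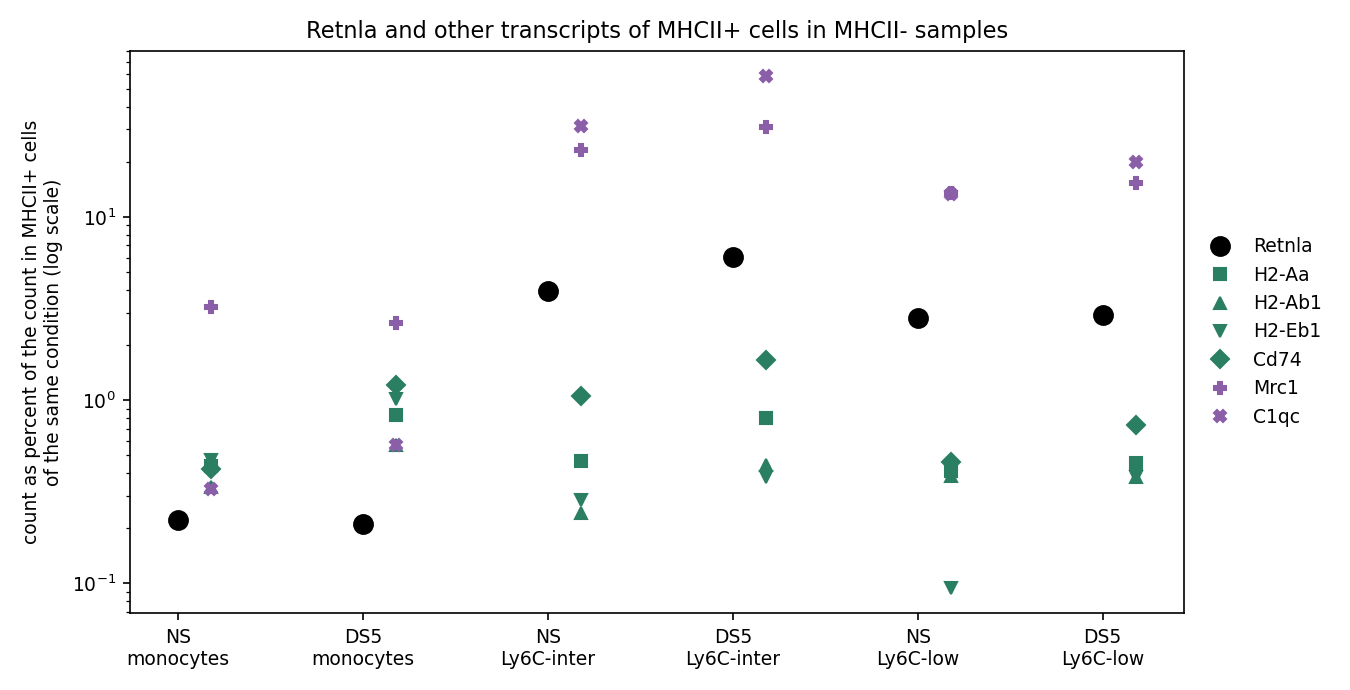
Count of Retnla (black), MHC class II genes (green) and macrophage genes (purple) in each MHCII- sample as percent of the count in the MHCII+ sample of the same condition, on a log scale. In Ly6C-inter and Ly6C-low samples Retnla (2.80% to 6.04%) lies between the class II genes and Mrc1 or C1qc, and in monocytes (0.223% and 0.212%) it lies at the bottom.

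Between conditions, Retnla was lower in DS5 than in NS in all 4 populations and under all 7 scalings. At equal totals each difference was less than the log2 ratio of 1.5 that counted as lower. In MHCII+ cells the log2 ratio DS5 over NS was -0.35 (-0.43 to -0.27), beside a median of 0.14 over all genes. In Ly6C-inter cells it was -1.38 (-1.76 to -0.998), but -0.12 without scaling, since the DS5 sample held 14201 counts against 5948 in NS. In Ly6C-low cells it was -0.16 (-0.68 to 0.34) and in monocytes -1.33 (-3.55 to 0.64), both with intervals that included 0. In a bulk sample, fewer cells of a type and less RNA per cell cannot be told apart. The difference of the DS5 to NS ratio between MHCII+ and Ly6C-inter cells was 1.03 (0.64 to 1.42), and between Ly6C-inter and Ly6C-low cells it was -1.22 (-1.85 to -0.57). Both are values at equal totals and rest on the DS5 Ly6C-inter sample, which stood apart. Without scaling the ratios were -0.74, -0.12 and -0.68 in MHCII+, Ly6C-inter and Ly6C-low cells, so both differences turned sign. Between MHCII+ and Ly6C-low cells the difference at equal totals was -0.19, with an interval (-0.70 to 0.33) that included 0.

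Arg1 encodes arginase 1, the urea cycle enzyme that takes arginine away from nitric oxide synthase. In NS it had 23 counts in MHCII+ cells, 9 in Ly6C-inter cells, 5 in Ly6C-low cells and 11 in monocytes. In DS5 it had 26 counts in Ly6C-inter cells and 1 count, the smallest value of the table, in each of the other samples. It was above the limit in NS MHCII+ cells and in DS5 Ly6C-inter cells only. The 26 counts stood against a limit of 23.0, and 1 probe without a target had 24 counts in that sample. As a share of gene counts Arg1 was at 0.183% in DS5 and 0.151% in NS Ly6C-inter cells and highest, at 0.403%, in NS monocytes, where it was below the limit.

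In MHCII+ cells Arg1 had a log2 ratio DS5 over NS of -4.14 (-9.50 to -1.51) and was 1 of the 0.663% of genes counted as lower. The DS5 count lay below its limit of 15.3, and with values raised to the limit the ratio was -0.20 and Arg1 was no longer counted. In monocytes it was -3.99 (-9.41 to -1.20), with both counts below the limit, and -0.63 with values raised to it. In Ly6C-low cells the log2 ratio was -1.81 (-7.37 to 1.35). In Ly6C-inter cells it was 0.27 (-0.86 to 1.55) at equal totals and 1.53 without scaling, and it was above 0 under all 7 scalings but -0.04 with values raised to the limit. At equal totals, the difference of the DS5 to NS ratio between MHCII+ and Ly6C-inter cells was -4.28 (-9.83 to -1.33). Between monocytes and Ly6C-inter cells it was -4.14 (-9.74 to -1.05). In DS5, Arg1 in MHCII+ cells was below Ly6C-inter cells by a log2 ratio of -5.80 (-11.15 to -3.19), between -6.76 and -4.25 over the scalings, where 15.4% of all genes were counted as lower and 3.18% with the higher count above the limit. With values raised to the limit it was -1.86, short of the threshold of 2.

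The DS5 Ly6C-inter sample, the only DS5 sample with Arg1 above the limit, had 55 counts of S100a9, a neutrophil and monocyte gene, against 16 in NS Ly6C-inter cells and at most 7 in the other samples. The neutrophil list, with 9 of 13 genes measured, summed to 83 raw counts there and to 15 to 33 elsewhere. S100a9 was its only gene above the limit in any sample. Probes without a target also had their highest mean there, at 8.4 counts, against 4.25 to 6.5 in the other samples. At equal totals, 0 of the 9 genes were counted as higher or lower with DS5 in Ly6C-inter cells, beside 3.45% and 6.9% of all genes. The sort had removed Ly6G-stained cells. The part of neutrophil genes, of Ly6c1 (583 counts) and of the depth of this sample in the Arg1 result was not tested.

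Chil3 (Ym1) and Chil4 (Ym2) encode secreted chitinase-like lectins without chitinase activity. Chil3 had 16 counts in NS monocytes, and 13, 4 and 3 in NS MHCII+, Ly6C-inter and Ly6C-low cells. In DS5 it had 70 in monocytes, and 5, 8 and 3 in MHCII+, Ly6C-inter and Ly6C-low cells. The DS5 monocytes stood clear of every other sample, and only they, NS monocytes and NS MHCII+ cells were above the limit.

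Chil4 had 7 counts in NS monocytes and 8, 2 and 4 in NS MHCII+, Ly6C-inter and Ly6C-low cells. In DS5 it had 41 in monocytes, 2 in Ly6C-low cells and 6 in both MHCII+ and Ly6C-inter cells. Only the DS5 monocytes were above the limit, so every Chil4 ratio is a comparison with a count that the controls do not separate from background.

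In monocytes the log2 ratio DS5 over NS was 1.60 (0.80 to 2.49) for Chil3 and 2.02 (0.85 to 3.43) for Chil4, and both were counted as higher. They were 2 of the 4 genes counted as higher in this comparison, 0.531% of the 754, while the median of all genes was -0.16. Over the 7 scalings the values ran from 1.42 to 2.13 for Chil3 and from 1.84 to 2.55 for Chil4, so Chil3 missed the threshold of 1.5 in the lowest of them. With values raised to the limit Chil3 stayed at 1.60 and Chil4, whose NS count was below it, was at 0.91 and no longer counted. In the other populations all intervals of both genes included 0. For Chil3 the log2 ratio there was -0.99 (-2.83 to 0.59) in MHCII+ cells, -0.26 (-2.16 to 1.93) in Ly6C-inter and 0.52 (-2.38 to 3.42) in Ly6C-low cells. The difference of the Chil3 ratio between MHCII+ cells and monocytes was -2.55 (-4.59 to -0.74). For Chil4 that difference was -1.99, with an interval that included 0 (-4.26 to 0.14).

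Relative to Ccl24 in the same samples, Chil3 was higher in DS5 than in NS monocytes by 4.13 on the log2 scale (1.57 to 7.47), and relative to Retnla, Chil3 was higher as well (Retnla minus Chil3 -2.94, -5.29 to -0.73). Both values are free of scaling, with Ccl24 and Retnla below the limit in both monocyte samples. The change of Chil3 relative to Chil4 between the monocyte samples was -0.42 (-2.06 to 1.09), so a shift between the paralogs was not detectable at this depth. The genes are close paralogs, as their promoters above show, and whether each probe reads only its own transcript was not tested.

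In MHCII+ cells both paralogs were low against DS5 monocytes. In DS5 the log2 ratio of MHCII+ cells over monocytes was -6.76 (-8.42 to -5.47) for Chil3 and -5.72 (-7.25 to -4.48) for Chil4. Both MHCII+ counts were below the limit, and with values raised to it the ratios were -5.14 and -4.37. In NS, where 13 and 16 counts were compared, it was -4.16 (-5.34 to -3.01) for Chil3, at rank 105 from the bottom, and -3.67 for Chil4 with both counts below the limit. The share of all genes counted as lower was 25.9% in DS5 and 26.5% in NS, and with the higher count above the limit it was 0.928% and 0.265%. Both paralogs passed that stricter rule in DS5, and Chil3 passed it in NS. Without scaling, the NS ratio of Chil3 was -0.30 and was no longer counted, Chil4 was at -2.77 in DS5 and the NS ratio of Chil4 turned to 0.19. Arg1 was also counted as lower than in NS monocytes, at -2.80, with 11 counts below the limit in monocytes, and turned to 1.06 without scaling.

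**Figure D3:**
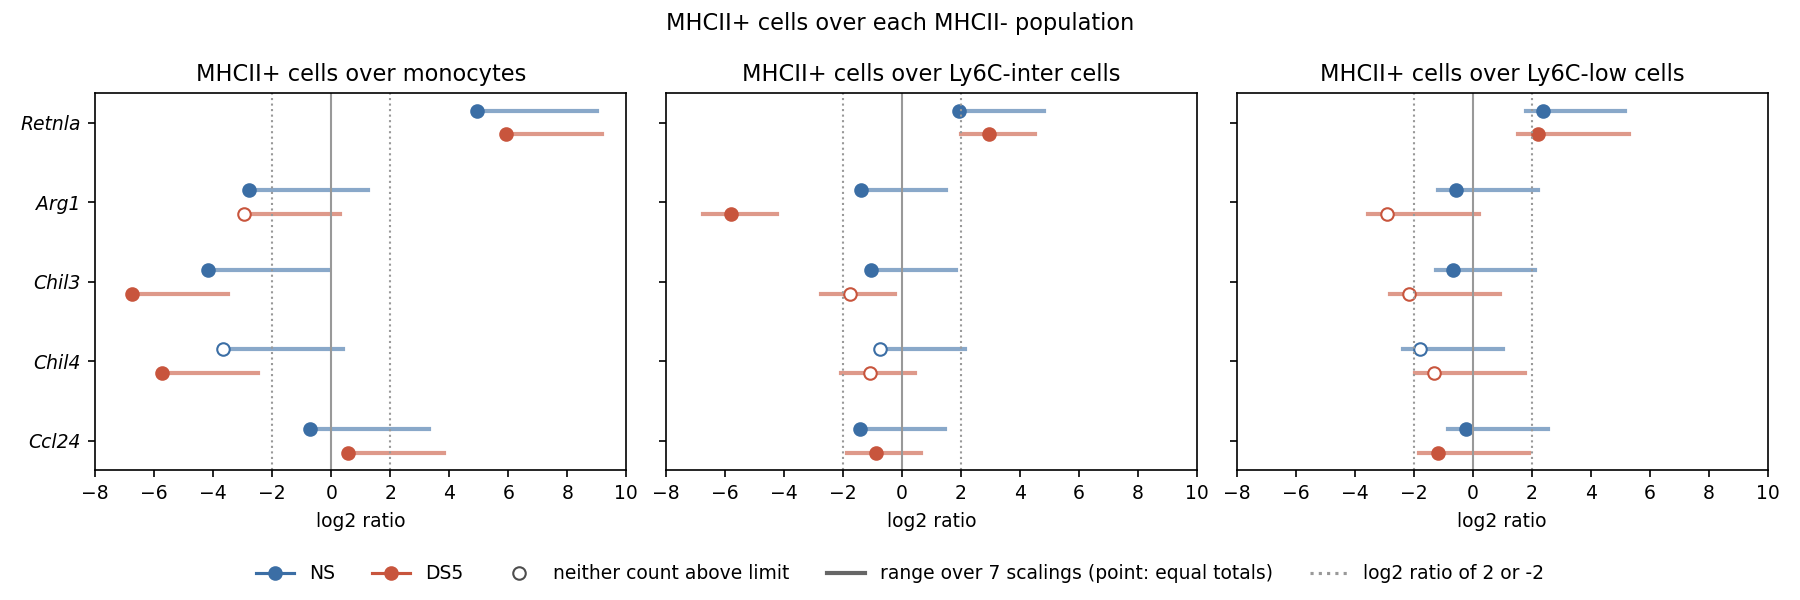
Log2 ratio of MHCII+ cells over each MHCII- population for the 5 genes, NS in blue and DS5 in red, with the point at equal totals, the bar spanning 7 scalings (it is no error bar), open points where neither count was above the limit and dotted lines at log2 ratios of 2 and -2. Every Retnla bar lies above 0 and the Chil3 bars for monocytes lie below 0, while most bars of Ccl24 cross 0.

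Ccl24 encodes eotaxin-2, a chemokine that attracts eosinophils through CCR3. It had 70 counts in NS MHCII+ cells, 28 in Ly6C-inter cells, 12 in Ly6C-low cells and 8 in monocytes. In DS5 it had 23 in MHCII+ cells, 20 in Ly6C-inter cells, 7 in Ly6C-low cells and 2 in monocytes. It was lower in DS5 in all 4 populations under all 7 scalings, and the 3 samples above the limit were both MHCII+ samples and NS Ly6C-inter cells.

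The log2 ratio DS5 over NS of Ccl24 was -1.22 (-1.97 to -0.52) in MHCII+ cells, short of the threshold, and -1.61 without scaling. In Ly6C-inter cells it was -1.74 (-2.65 to -0.86), counted as lower together with 6.9% of all genes, and -0.49 without scaling. In monocytes it was -2.53 (-5.80 to -0.20) with both counts below the limit, where 1.33% of genes were counted as lower and none of them was above the limit. In Ly6C-low cells it was -0.26 (-1.85 to 1.20). Between populations, its interval for the difference of the DS5 to NS ratio included 0 in all 6 pairs. In MHCII+ cells the DS5 to NS ratio of Ccl24 was lower than that of Retnla by more than counting error. Retnla minus Ccl24 was 0.87 (0.17 to 1.62). Arg1 minus Ccl24 was -2.92 (-8.34 to -0.12), which rests on 1 count of Arg1 in DS5, below the limit of 15.3. In Ly6C-inter cells Arg1 minus Ccl24 was 2.02 (0.52 to 3.57). With values raised to the limit, Arg1 was at -0.20 and Ccl24 at -1.22 in MHCII+ cells. In Ly6C-inter cells they were then at -0.04 and -1.54, so Ccl24 was the lower of the pair in both populations. Eosinophil genes, of which 6 of 8 on the list were measured, summed to 9 to 25 counts, except for 54 in NS Ly6C-low cells, where Ccr3 had 25 and Siglecf 20 counts. Their part in the Ccl24 values was not tested.

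**Figure D4:**
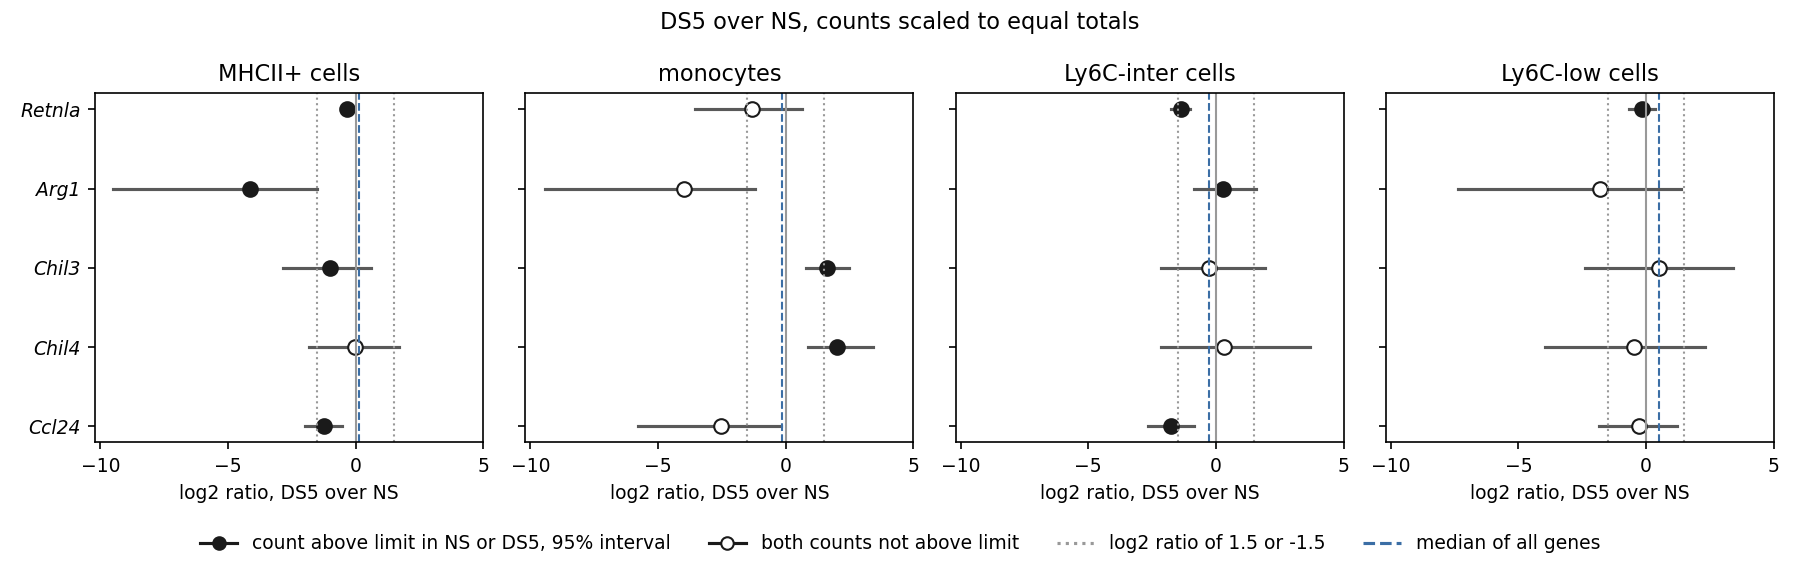
Log2 ratio DS5 over NS of the 5 genes in each population at equal totals, with 95% intervals for counting error as bars, open points where both counts were not above the limit, dotted lines at 1.5 and -1.5 and the median of all genes as a dashed blue line. Chil3 (1.60) and Chil4 (2.02) in monocytes lie past 1.5, and Arg1 in MHCII+ cells lies at -4.14.

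Over the 4 populations, 15 of the 20 log2 ratios DS5 over NS were below 0 and 9 intervals excluded 0. The same shares over all genes are not given here, so nothing is read from these counts about the set. A count above the limit in NS or DS5 was found for 4 of the 5 genes in MHCII+ cells and 2 in monocytes. In Ly6C-inter cells it was found for 3 and in Ly6C-low cells for 1. At the threshold 2 of the 20 ratios were counted as higher, both in monocytes, and 4 as lower. Of the 4, Arg1 in MHCII+ cells and Ccl24 in Ly6C-inter cells had the higher count above the limit. The same held for 0.663% and 3.98% of all genes there, and for 0.398% in the direction of Chil3 and Chil4 in monocytes. No member was counted as higher in MHCII+ cells (0.663% of all genes), Ly6C-inter cells (3.45%) or Ly6C-low cells (2.79%), or as lower in Ly6C-low cells (1.06%). The median over the 5 genes was -0.99 in MHCII+ cells (0.14 over all genes) and -1.33 in monocytes (-0.16 over all genes). In both the Ly6C-inter and the Ly6C-low cells it was -0.26, beside -0.26 and 0.52 over all genes.

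At equal totals the order of the levels exceeded counting error for most neighbours of Retnla and for few of the other genes. In scaled counts Retnla ran from NS MHCII+ cells to DS5 MHCII+ cells, NS Ly6C-inter, NS Ly6C-low, DS5 Ly6C-low, DS5 Ly6C-inter, NS monocytes and DS5 monocytes, and the intervals of neighbours included 0 only for the Ly6C-low pair and the monocyte pair. The place of the DS5 Ly6C-low above the DS5 Ly6C-inter sample depended on the scaling and turned without it, at 55 against 114 counts. For Chil3 the DS5 monocytes and NS monocytes were resolved from each other and from the rest, and for Chil4 the DS5 monocytes alone. For Arg1 and Ccl24 no neighbouring levels were resolved.

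Among 138 genes with a count of at least 50 in at least 1 sample, the patterns most like each gene were found by the Pearson correlation of log2 scaled counts over the 8 samples, which differ in population and depth. Retnla was most like Mrc1 (r = 0.84), Ptafr (0.83), the receptor for platelet-activating factor, and C1qc (0.81). Chil4 was most like Chil3 (0.97), and this value was between 0.94 and 0.99 with each sample left out in turn. Chil4 was above the limit in 1 of the 8 samples, Arg1 in 2, and Chil3 and Ccl24 in 3 each. Their correlations therefore rest mostly on counts that the controls do not separate from background. Such counts share the scale factor of each sample, and leaving a sample out does not change that, so no shared pattern is read from them. Several of the other correlations were lower with a sample left out. Arg1 was nearest to Rhog (0.71), Ccl24 (0.70) and Ceacam1 (0.70), and the last fell to 0.43 without DS5 MHCII+ cells. Ccl24 was nearest to the chemokine Ccl8 (0.73), C5ar1 (0.70) and Oaz1 (0.66), with 0.45 for C5ar1 without NS Ly6C-inter cells and 0.35 for Oaz1 without DS5 monocytes. Chil3 was nearest to Arf6, Tgfb1 and Cybb (each 0.68), a set of which 0 of 3 were kept without scaling, and Arf6 was at 0.40 without DS5 monocytes. For Retnla the lowest values were 0.65 to 0.67, all without DS5 monocytes.

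The cytokines upstream were not detected in the sorted cells. Il4 had 1 to 5 counts and Il13 had 3 to 9, below the limit in all samples. The sort kept CD11b+ cells and had discarded stained lymphoid cells and granulocytes. Whether cells outside this gate made either cytokine in the conjunctiva was not tested. Il4ra, the receptor chain shared by both cytokines, had 39 counts in NS and 31 in DS5 MHCII+ cells, 17 and 24 in Ly6C-inter cells and at most 10 in the other samples. Stat6 in MHCII+ cells had 33 counts in NS and 18 in DS5, with 15 or fewer elsewhere. In the list of IL-4 and IL-13 signalling genes, 10 of 15 were measured. None was counted as higher or lower with DS5 in MHCII+ cells, monocytes or Ly6C-low cells. Of all genes, 0.531% to 2.79% were counted as higher there and 0.663% to 1.33% as lower. In NS or DS5, 4 of the 10 were above the limit in MHCII+ cells and 0 in monocytes and in Ly6C-low cells. Nothing is therefore read from this about the signalling. Socs3, an inhibitor of cytokine signalling, was lower in Ly6C-inter cells (17 against 21 counts, -1.56, -2.57 to -0.57), as were 6.9% of all genes.

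Of 8 measured transcription factors of alternative activation, Cebpb, a factor for Arg1 transcription, was lower with DS5 in Ly6C-low cells, with 26 counts against 106 in NS (-1.51, -2.19 to -0.88), where Arg1 itself was below the limit. Klf4 in MHCII+ cells had 135 counts in NS and 83 in DS5, and was not counted in any comparison of conditions.

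Of 25 other measured genes of alternative activation, Mmp12, the macrophage elastase, was the only one counted as higher with DS5, in MHCII+ cells, with 44 counts against 17 (1.76, 0.92 to 2.66). In the same cells Retnla, Arg1, Chil3 and Ccl24 all had ratios below 0. In Ly6C-inter cells 5 of the 25 were lower, where 6.9% of all genes were, among them the chemokines Ccl7 (-2.60, -3.39 to -1.87) and Ccl8 (-1.76, -2.58 to -0.96), the activation marker Cd83 (-1.95, -3.07 to -0.88) and the transglutaminase Tgm2 (-2.26, -3.51 to -1.09). In monocytes, where Chil3 and Chil4 were higher, 0 of the 43 genes of the 3 lists were counted in either direction, beside 0.531% of all genes higher and 1.33% lower, so nothing is read from it about the lists. Of 26 classical activation genes, Irf1 was higher in Ly6C-inter cells (1.60, 0.86 to 2.42), where 3.45% of all genes were. Il1b (-2.44, -3.61 to -1.37), Cd86 (-2.09, -3.45 to -0.82) and Socs3 were lower there, beside 6.9% of all genes. The DS5 counts of these last genes, 11, 9 and 17, were below the limit of 23.0, against 25, 16 and 21 counts in NS.

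Between MHCII+ cells and the MHCII- populations, the 43 genes of the 3 lists were counted as higher 12 times and as lower 46 times over the 6 comparisons. Without scaling it was 99 and 2 times. Of all genes, 1.59% to 2.79% were counted as higher and 11.8% to 26.5% as lower in these comparisons. For most of the lower list genes the higher count was not above the limit, so nothing is read from these counts about the lists. The scavenger receptor Cd163 (2.94, 0.44 to 8.26), the IL-1 receptor antagonist Il1rn (2.91, 0.40 to 8.22) and Ccl7 (2.09, 0.21 to 5.15) were higher in MHCII+ cells than in monocytes of NS mice, with 1 or 2 counts in the latter. In DS5, Mrc1 was higher than in monocytes (2.29, 0.90 to 4.18). The fibronectin gene Fn1 was higher in MHCII+ cells than in both Ly6C-inter and Ly6C-low cells in both conditions, with 246 MHCII+ counts in NS and 199 in DS5. Tgm2 ran the opposite way to Retnla, with 73 counts in NS Ly6C-low cells against 8 in NS MHCII+ cells (-5.96, -7.23 to -4.91). Vegfa was also lower in MHCII+ cells, against both Ly6C-low samples (-4.30 in NS and -3.11 in DS5) and NS Ly6C-inter cells (-3.15), as was Cebpb against NS Ly6C-low cells (-2.47).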

How the data were processed

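The authors sorted the cells, extracted total RNA, hybridised it to a NanoString nCounter panel of mouse myeloid genes (Myeloid Innate Immunity V2) and deposited raw counts for 768 probes (754 genes, 8 negative and 6 positive controls) in 8 samples. The deposited counts are whole numbers with a smallest value of 1, which may stand for 1 or less, and carry no normalization. Samples were matched to groups by the labels, and the table held 0 other per-sample columns. The genome build of the probes is not given in the sources used here. The members, lists and comparisons were chosen with earlier results of these data known.

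Counts were scaled to equal gene totals (13334 counts), since 2 of 20 measured reference genes, of 45 listed, exceeded the negative control limit in all 8 samples. The log2 ratio of scaled counts was computed for all 754 genes without a floor, with an exact binomial 95% interval (Clopper-Pearson). Ratios relative to another gene, and differences of ratios, have the exact conditional interval of an odds ratio. A gene was counted as higher or lower at a log2 ratio of at least 1.5 (DS5 over NS) or 2 (MHCII+ over MHCII-), the thresholds of the study, with an interval that excluded 0. With 1 sample per group no test was run. Genes named were the 5 members, sort markers, list genes past the threshold with an interval excluding 0 and the higher count above the limit, and the 3 genes most like each member by correlation. The genes of cytokine signalling given below the limit (Il4, Il13), Il4ra, Stat6 and Klf4, and the marker genes given by count, were chosen after their values were seen. The scripts were tested on simulated data. Promoters and gene positions came from RefSeq (GRCm38.p6). Alternatives were 6 other scalings (none, reference genes, positive controls, Ppia and Rpl19, median of ratios, totals without the members), a floor of 1, log2(value + 1), values raised to the limit, a filter at the limit and other thresholds. Tools were biopython 1.88, matplotlib 3.10.9, numpy 2.4.6, pandas 2.3.3 and scipy 1.17.1 under Python 3.11.15.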

Additional observations from a re-analysis of the deposited data

Results flagged for a closer look

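In 3 cases the DS5 to NS ratio of a gene had opposite signs in a pair of populations and the interval of the difference excluded 0, with 1 sample per population and condition, so the difference was not tested and its interval covers counting error only. The log2 ratio of Arg1 in MHCII+ cells minus that in Ly6C-inter cells was -4.28 (-9.83 to -1.33), and in monocytes minus that in Ly6C-inter cells it was -4.14 (-9.74 to -1.05). Both rest on 26 counts in the DS5 Ly6C-inter sample, just above its limit of 23.0, and on 1 count in the other DS5 sample of each pair. The Arg1 ratio in Ly6C-inter cells was 0.27, with an interval (-0.86 to 1.55) that included 0. With values raised to the limit, Arg1 was at -0.20 in MHCII+ cells, -0.63 in monocytes and -0.04 in Ly6C-inter cells. The log2 ratio of Chil3 in MHCII+ cells minus that in monocytes was -2.55 (-4.59 to -0.74), from 5 and 13 counts in DS5 and NS MHCII+ cells and 70 and 16 in monocytes. The Chil3 ratio in MHCII+ cells was -0.99, with an interval (-2.83 to 0.59) that included 0.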

How the results depend on the processing

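No paired analysis was run because each group held 1 sample with no replicate to pair, and no replicate could be left out. A fit with the 4 populations as blocks would take cells of the same mice as replicates and was not run. Of 481 values of single members under the alternatives, 381 stayed within their counting interval, 96 moved beyond it and 4 turned sign after being counted. The 4 were Arg1 in NS MHCII+ cells over NS monocytes, at 1.06 without scaling and 1.26 with positive controls, and Chil4 in the same comparison, at 0.19 and 0.39. For DS5 over NS, members counted as higher went from 2 to 1 with Ppia and Rpl19, with values raised to the limit and at a threshold of 2. Members counted as lower went from 4 to 2 with reference genes and among genes above the limit, and to 1 with values raised to the limit, where Ccl24 in Ly6C-inter cells remained and Arg1 in MHCII+ cells did not. For MHCII+ over MHCII- cells, members counted as higher went from 5 to 11 without scaling and with positive controls and to 2 with Ppia and Rpl19. Those counted as lower went from 6 to 3, 3 and 10 under these scalings and to 16 with values raised to the limit. Genes of the 3 alternative activation lists counted as higher with DS5 went from 1 to 5 without scaling, 4 with positive controls, 3 with reference genes, Ppia and Rpl19 or median of ratios, and 2 with totals taken without the members. Those counted as lower went from 8 to 3 without scaling, 5 with positive controls, 3 with Ppia and Rpl19, and 1 without the DS5 Ly6C-inter sample, an alternative chosen after seeing the data, as were the correlations with a sample left out. List genes higher in MHCII+ cells went from 12 to 99, 30, 108 and 44 without scaling and with reference genes, positive controls and median of ratios, and those lower from 46 to 2, 17, 2 and 8. The cause was not tested. Median of all genes for NS MHCII+ cells over NS monocytes moved from -2.28 at equal totals to 1.78 with positive controls, so ratios between populations are relative to the scaling. Values below the negative control limit cannot be told from background, and counting intervals leave out the variation between mice and pools.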
